A study of Mus musculus with 30 samples.

Results

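Gastrocnemius muscle is collected with whatever fat lies between and along its fibers, and the amount of adipocyte transcript in the 30 libraries described here differed widely. The libraries were ranked by the FPKM (fragments per kilobase of transcript, scaled to the reads of the library) of Adipoq, the gene for the adipocyte hormone adiponectin. The 10 highest libraries, called Adipoq-rich, were compared with the 10 lowest, called Adipoq-poor, and the 10 in between took no part in that test. Adipoq chose the libraries, so its own values are given as a description and it was left out of every count. The other 12029 genes that passed the filter on low values were tested.

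Each library came from 1 male C57BL/6J Wild-type mouse, housed alone with a running wheel. Mice had spent 64 weeks either under a fixed light-dark cycle (LD, 14 mice) or under a light cycle advanced by 8 hours every 4 days (ADV, 16 mice). RNA was poly(A)-selected from gastrocnemius, which the study collected together with the plantaris. Mice were not all killed at the same hour of the day, and the labels do not give it for each mouse. They were old when the muscle was taken, and no mouse carried an engineered allele. Schedule was kept as a term in the comparison, because the Adipoq-rich set held 7 ADV and 3 LD libraries and the Adipoq-poor set 5 of each.

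White adipocytes store triglyceride in a single large lipid droplet coated with perilipins and CIDE proteins, take up fatty acids that lipoprotein lipase frees from circulating lipoproteins, and release them again through hormone-controlled lipolysis. They also secrete hormones, the adipokines, among them adiponectin, leptin and resistin. In aging or disused muscle they appear between fibers, where they arise from fibro-adipogenic progenitors, and adipose tissue also lies on the surface of the muscle and along its vessels. Several well-known adipocyte genes, such as those for lipid uptake and lipid droplet turnover, are also active in muscle fibers or capillaries.

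Adipoq ranged from 21.5 to 83.7 FPKM, with a median of 31.5, in the Adipoq-rich libraries, and from 2.44 to 9.40 FPKM, with a median of 5.95, in the Adipoq-poor libraries. The 10 libraries in between lay between 12.3 and 21.1 FPKM. The last library inside the rich set, from LD mouse 28, had 21.522 FPKM and the first outside it, from ADV mouse 36, had 21.138, so the upper limit fell where values were close together. At the lower limit ADV mouse 31 was inside with 9.403 FPKM and LD mouse 33 outside with 12.285. ADV mouse 24 stood highest at 83.7 FPKM, followed by ADV mouse 33 at 55.7 and ADV mouse 23 at 43.2. In all 16 ADV libraries Adipoq ran from 2.44 to 83.7 FPKM with a median of 19.4, and in the 14 LD libraries from 4.00 to 35.1 with a median of 14.0.

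**Figure D1:**
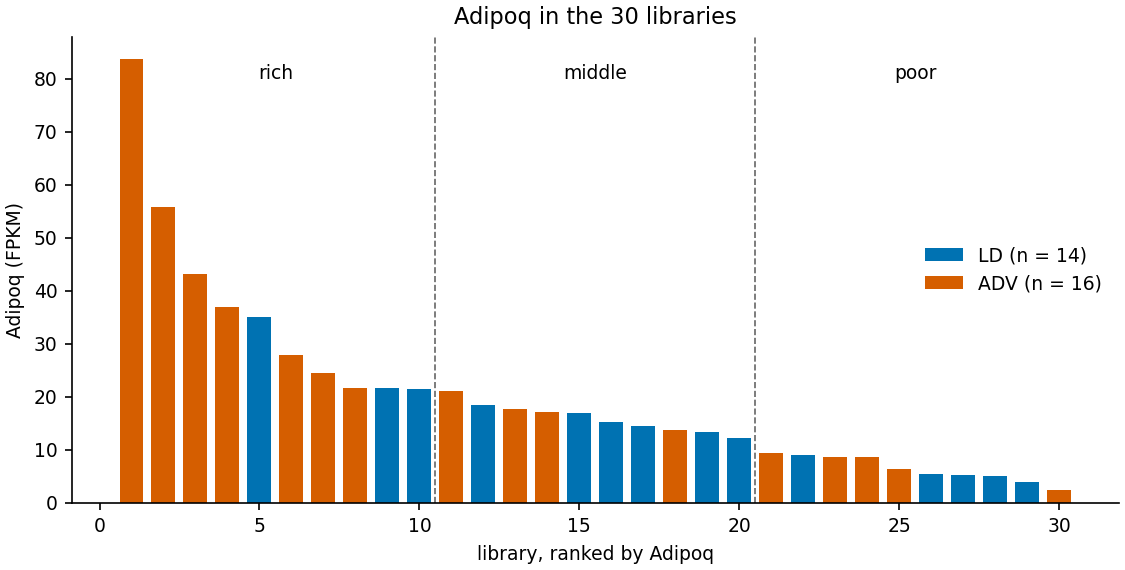
Adipoq in FPKM on a linear scale for all 30 libraries, as bars ordered from highest to lowest and colored by schedule, with dashed lines between the 3 classes. The Adipoq-rich libraries reach from 21.5 to 83.7 FPKM and the Adipoq-poor libraries from 2.44 to 9.40, and there is no large step at the upper limit.

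Totals of reads in exons were 18875468.5 to 28512674 per library. Rich and poor libraries did not differ detectably in this total (adjusted p = 0.541, two-sided permutation test, adjusted over 30 measures). In rich libraries 91.35% ± 0.31 and in poor libraries 91.34% ± 0.20 of reads (SD, n = 10 each) lay in exons. Muscle genes were abundant: the summed level of the fast fiber list was 78340 to 113300 FPKM over the rich and poor libraries. The numbers in the sample labels did not fall evenly. Numbers of 28 or below belonged to 8 of the 10 rich, 3 of the 10 middle and 3 of the 10 poor libraries, and the labels do not say what the number stands for.

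Of the 12029 genes, 147 (1.22%) differed between Adipoq-rich and Adipoq-poor libraries in edgeR's quasi-likelihood test, at a false discovery rate (FDR, Benjamini-Hochberg) under 0.05 and a fold change over 1.3. Of these, 132 genes (1.1% of those tested) were higher in the rich libraries and 15 (0.125%) were lower. Before the fold limit and the adjustment the sides were even, with 893 genes (7.42%) higher and 879 (7.31%) lower at an unadjusted p under 0.05, and the median log2 fold change of all genes was -0.006, with 52.4% of genes below 0. At an FDR under 0.05 with no fold limit, 207 genes (1.72%) were called. The large changes were all on one side: 55 of the genes that rose did so by more than a fold of 2, and 0 of those that fell. In 21 genes (0.175%) every rich library was above every poor library, and in 0 genes every rich library was below. With label number over 28 added as a term, an alternative chosen after seeing the data, 74 genes were called, and with each library left out in turn between 92 (without LD mouse 23) and 199 (without ADV mouse 28). In a bulk sample, fewer cells of a type and less RNA per cell cannot be told apart.

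Of 9 genes tested on the adipokine list, without Adipoq, 8 rose and 0 fell, and the median log2 fold change was 1.61. The list also holds Nnat and Sncg, which do not encode secreted hormones, and the median is the value of Sncg. Lep encodes leptin, the hormone by which fat stores signal to the brain. It was at 2.20 FPKM in the lowest, 8.60 in the median and 39.6 in the highest of the rich libraries, and at 0.235, 0.838 and 2.26 in the poor ones. The classes touched only at their edges, where the lowest rich library (LD mouse 28) lay just below the highest poor one. The change in Lep was 3.19 on the log2 scale (SE 0.43, edgeR FDR 0.000321) and 2.90 without ADV mouse 24. Nnat, neuronatin, a membrane protein of the endoplasmic reticulum, ran from 12.3 through 21.5 to 42.5 FPKM in the rich libraries and from 1.67 through 3.97 to 9.63 in the poor ones, with no overlap (log2 2.28, SE 0.27, FDR 8.77e-05).

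Cfd encodes adipsin, the serine protease of the alternative complement pathway that adipocytes make in large amounts. It was 33.2, 82.4 and 211 FPKM (lowest, median, highest) in rich libraries and 14.0, 30.96 and 62.2 in poor ones, so the classes overlapped in their middle range (log2 1.48, SE 0.29, FDR 0.00834). Rbp4, the carrier of retinol in plasma, was 2.12, 3.83 and 8.79 FPKM against 0.492, 1.16 and 2.09. Its classes did not overlap (log2 1.70, SE 0.24, FDR 0.000469). Sncg, gamma-synuclein, was 11.5, 18.4 and 41.4 FPKM against 4.53, 6.47 and 9.12 and also did not overlap (log2 1.61, SE 0.19, FDR 8.08e-05). On the other strand, exons of Ffar4 cover 22.4% of the exon bases of Rbp4, and whether counting used strand is not given in the sources used here.

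Retn, resistin, ran from 3.19 through 5.72 to 14.7 FPKM in the rich set and from 0.606 through 1.46 to 4.41 in the poor set. Its classes overlapped, and its call (log2 1.51, SE 0.35, FDR 0.0286) was lost without any one of ADV mice 23, 29, 30 and 32 or LD mice 23, 28 and 36. Rarres2, the precursor of the chemoattractant chemerin, rose by only 0.50 on the log2 scale (SE 0.10, FDR 0.0139), with medians of 20.0 and 13.8 FPKM, and shares 45.0% of its exon bases with Lrrc61 on the opposite strand. Orm1, an acute-phase lipocalin, had medians of 2.22 and 0.508 FPKM (log2 1.91, SE 0.36, FDR 0.00659), and is uncertain, since it has near-identical Orm copies and the assignment of reads among them was not tested. Nampt, the NAD-synthesis enzyme also known as visfatin, was the member that did not pass, at a log2 difference of -0.15 (FDR 0.329).

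Proximal promoters are shown for some adipocyte genes that rose, so that their letters can be read beside the levels. The rule took the 3 with the highest mean FPKM among Plin1, Cidec, Fabp4, Cfd, Retn, Lep and Pparg, which were Fabp4, Cfd and Cidec. No promoter sequence was available for Fabp4, so it is not shown. Lep was added after its values were seen, because, of the adipocyte genes that rose and have a promoter in the table, it was the only one holding the motif TTGCGCAA, the palindromic site of C/EBP factors. Sequences are from RefSeq on build GRCm38.p6, 250 bases before to 50 after the start, written 5′ to 3′ on the strand of the gene, and capitals mark a motif match. Cfd lies at chr10:79890603-79890902 on the plus strand, the first of 2 promoters of Cidec at chr6:113435711-113436010 on the minus strand and Lep at chr6:29059971-29060270 on the plus strand.
Cfd: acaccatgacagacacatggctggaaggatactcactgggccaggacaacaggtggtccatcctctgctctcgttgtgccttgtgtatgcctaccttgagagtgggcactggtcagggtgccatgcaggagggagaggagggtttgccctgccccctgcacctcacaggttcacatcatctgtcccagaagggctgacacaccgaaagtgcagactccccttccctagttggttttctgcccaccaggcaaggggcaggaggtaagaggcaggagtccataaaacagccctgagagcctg
Cidec: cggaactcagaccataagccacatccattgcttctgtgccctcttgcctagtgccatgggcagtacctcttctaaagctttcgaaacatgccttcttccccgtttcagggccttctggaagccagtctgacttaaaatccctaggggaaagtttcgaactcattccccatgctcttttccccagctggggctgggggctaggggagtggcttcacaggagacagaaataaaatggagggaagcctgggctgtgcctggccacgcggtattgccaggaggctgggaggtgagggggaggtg
Lep: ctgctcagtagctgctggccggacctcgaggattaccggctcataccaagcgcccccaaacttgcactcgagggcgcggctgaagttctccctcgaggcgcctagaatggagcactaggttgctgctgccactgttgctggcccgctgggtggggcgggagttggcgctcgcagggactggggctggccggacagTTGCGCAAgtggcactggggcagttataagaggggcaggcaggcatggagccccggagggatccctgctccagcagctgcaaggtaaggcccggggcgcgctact

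The match in the Lep promoter began at position -55 from the start. Both strands were searched for TTGCGCAA, for the nuclear receptor element AGGTCA, for CCAAT and for TATAAA, and no match overlapped another. Among 32851 promoters of 300 bases, TTGCGCAA was in 0.183%, AGGTCA in 16.3%, CCAAT in 37.4% and TATAAA in 13.6%. Of the 20 adipocyte genes that rose, 13 had a promoter in the table, and TTGCGCAA was found in 1 of them, AGGTCA in 0, CCAAT in 3 and TATAAA in 2. The TATAAA matches were in Cebpa at -30 and in a promoter of Rbp4 at -28. A match describes the letters in this window and is not a measured binding site.

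Lipid droplet genes divided by kind. Of 7 tested, 2 rose and 0 fell, and the median log2 difference was -0.21. Plin1, perilipin 1, coats the droplet of adipocytes and gates lipolysis. Its level was 4.00 FPKM in the lowest, 7.17 in the median and 19.3 in the highest rich library, against 0.757, 1.71 and 2.93 in the poor ones, with no overlap (log2 2.14, SE 0.29, FDR 0.000321). Cidec, the protein that fuses droplets into a single large one, was 8.67, 17.7 and 61.1 FPKM against 1.48, 4.26 and 7.42, also with no overlap (log2 2.23, SE 0.33, FDR 0.00051). In the files' build, GRCm39, Plin1 has 9 exons on chromosome 7 from 79369966 to 79382535 and Cidec 6 exons on chromosome 6 from 113401595 to 113412721, both on the minus strand.

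The other droplet genes did not pass. Plin2, the perilipin of many cell types, differed by 0.14, Plin4 by -0.26 (FDR 0.653), G0s2, an inhibitor of adipose triglyceride lipase, by -0.30, and Cidea by -0.50 (FDR 0.554), all on the log2 scale. Cidea was -2.14 in the LD libraries alone and 0.09 in the ADV libraries alone, and the difference between schedules had an FDR of 0.4655 in edgeR's interaction test.

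Fatty acid uptake and storage gave 3 genes that rose and 0 that fell of 15 tested, with a median of 0.10. Fabp4, the fatty acid binding protein of adipocytes and capillaries, was the most abundant of them at 171, 207 and 402 FPKM (lowest, median, highest) in rich and 115, 156 and 208 in poor libraries. Its classes overlapped (log2 0.47, SE 0.10, FDR 0.0195). Pck1, which makes glycerol backbone for triglyceride in fat, was 2.18, 3.88 and 7.76 FPKM against 0.716, 1.296 and 2.67, with a small overlap (log2 1.59, SE 0.23, FDR 0.000469). The third was Lgals12, a galectin of lipid droplets, at medians of 1.76 and 0.435 FPKM with no overlap (log2 2.03, SE 0.24, FDR 8.08e-05). Of the 15, 8 were above 0 and 7 below. Among those that did not pass were Lpl, lipoprotein lipase, at a log2 difference of -0.42 (FDR 0.331), Cd36, a fatty acid transporter, at -0.35 (FDR 0.339) and Gpd1, which makes glycerol phosphate, at 0.11.

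Of 5 lipolysis genes tested, 1 rose, Pde3b, the phosphodiesterase through which insulin restrains lipolysis. It was 0.547, 0.736 and 1.23 FPKM in rich libraries and 0.317, 0.408 and 0.522 in poor ones, without overlap (log2 0.88, SE 0.14, FDR 0.00134). Lipe, hormone-sensitive lipase, differed by 0.58 (FDR 0.0944) and Pnpla2, adipose triglyceride lipase, by -0.25 (FDR 0.258). The beta3-adrenergic receptor Adrb3 was under the filter on low values, with mean levels of 0.312 FPKM in rich and 0.113 in poor libraries.

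Lipogenic enzymes gave 2 genes that rose of 14 tested, and the median was 0.12. Scd1, the desaturase that makes oleate, was 23.99, 54.8 and 147 FPKM in rich against 9.32, 22.9 and 34.7 in poor libraries, overlapping in part (log2 1.62, SE 0.31, FDR 0.00785). Slc25a1, the mitochondrial citrate carrier, rose by 0.95 on the log2 scale (SE 0.22, FDR 0.0316), a call that was lost without any one of ADV mice 23, 29, 30, 31 and 32 or LD mice 23, 29 and 36. Fasn, fatty acid synthase, had a log2 difference of 1.19 that did not pass (FDR 0.169), with medians of 3.23 and 2.54 FPKM and a highest rich library at 26.6. Acly, the enzyme that splits citrate in the cytosol, differed by 0.41 and also did not pass.

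Among receptors and glucose handling genes, 3 of 7 tested rose and 0 fell, with a median of 0.39. Npr3, the clearance receptor for natriuretic peptides, was 1.52, 2.60 and 6.73 FPKM in rich and 0.663, 0.875 and 1.75 in poor libraries, which overlapped slightly (log2 1.399, SE 0.21, FDR 0.000817). Trarg1, a partner of the insulin-regulated glucose transporter, was 1.20, 2.03 and 5.53 FPKM against 0.399, 0.793 and 1.07 (log2 1.49, SE 0.24, FDR 0.00126). Slc7a10, a transporter of small neutral amino acids, was 0.974, 1.94 and 5.14 FPKM against 0.106, 0.405 and 0.806 (log2 2.29, SE 0.31, FDR 0.000322). Neither Trarg1 nor Slc7a10 overlapped between classes. Slc2a4, the insulin-regulated glucose transporter itself and abundant in muscle fibers, differed by -0.21 (FDR 0.0666).

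Of 9 tested transcription factors of adipocytes, 1 rose. Cebpa, which with PPARgamma holds the adipocyte program, was 2.51, 4.15 and 8.86 FPKM in rich and 1.08, 1.90 and 2.59 in poor libraries, with a small overlap (log2 1.26, SE 0.21, FDR 0.00246). Pparg itself differed by 0.40 (FDR 0.173), and Klf15, a Krüppel-like factor also active in muscle, by -0.58 (FDR 0.106).

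**Figure D2:**
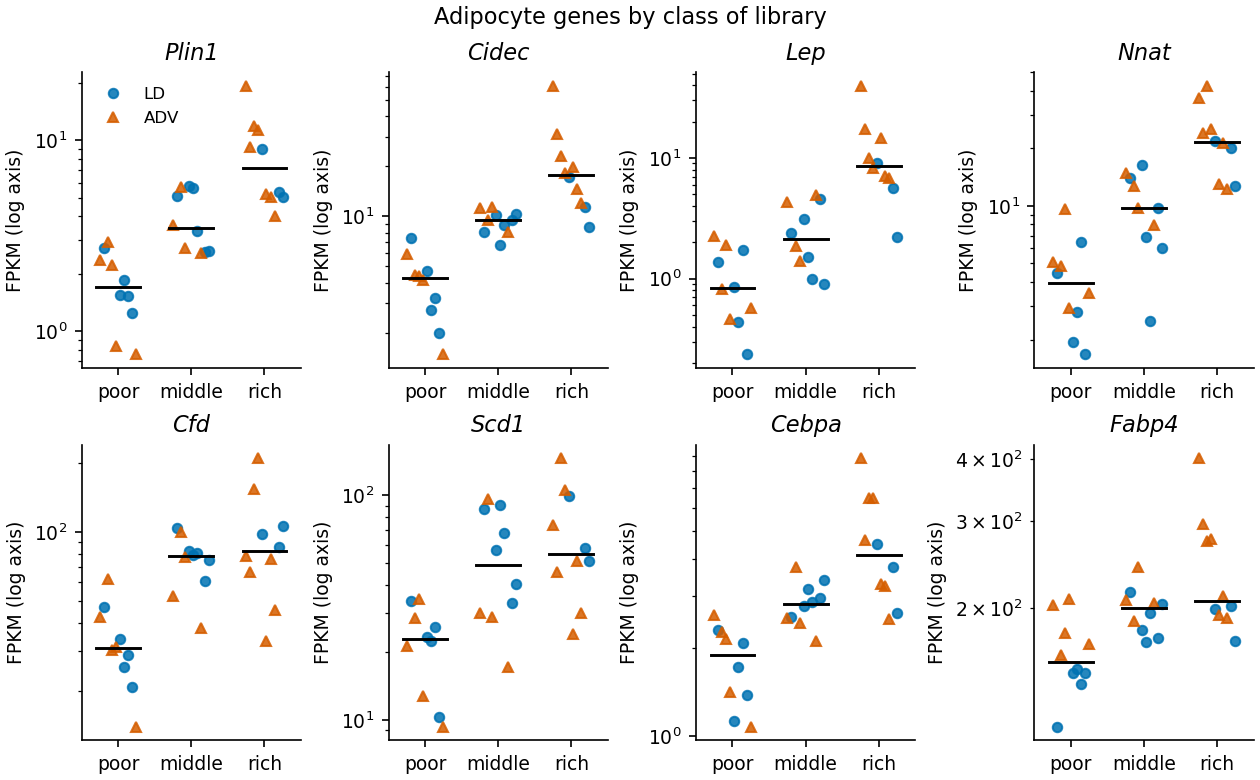
FPKM on a log scale of adipocyte genes in the Adipoq-rich, middle and Adipoq-poor libraries, 10 libraries a class, with points ordered by Adipoq within a class, circles for LD, triangles for ADV and a black line at the class median. Plin1 and Cidec do not overlap between rich and poor libraries, Cfd and Fabp4 do.

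In all, 66 of the 76 adipocyte genes on the lists were tested, and 20 rose while 0 fell. The median log2 difference of the 66 was 0.13, against -0.006 over all genes, and 43 were above 0. At an unadjusted p under 0.05, 26 were higher and 7 lower. The remaining 10 were under the filter on low values or had no row that passed. The 20 that rose had median levels in the poor libraries of 0.405 to 156 FPKM, of which 16 were under 10 FPKM, with a median over the genes of 1.58. The 46 that were not called ran from 0.491 to 680 FPKM, with 21 under 10 and a median of 12.7. These levels describe the genes on the lists and were not tested. With label number over 28 as a term 15 of the 66 rose, and without the 2 libraries highest in Adipoq 17 did. Both settings were chosen after seeing the data.

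The 10 middle libraries took no part in the choice of genes, though they were sorted by the same Adipoq ranking. Their median lay between the poor and the rich median for 20 of the 20 adipocyte genes that rose, at a median of 41.2% of the way from poor to rich. Among the 107 genes that rose and are on neither the adipocyte lists nor the macrophage list, it lay between for 100, above the rich median for 6 and below the poor median for 1. Because the genes were chosen for a gap between rich and poor libraries, a middle position is likely in advance. The share of all genes with such a position was not counted. Within these 10 libraries the slope on Adipoq was above 0 for 17 of the 20 adipocyte genes and 61 of the 107 others, beside 49.3% of all genes. At an FDR under 0.05, 0 genes had a slope in edgeR, and 5.76% of genes had a positive and 4.16% a negative slope at an unadjusted p under 0.05.

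Of the 132 genes that rose, 112 are on no adipocyte list. The largest rises among them, after the immunoglobulin gene Igkc, were Hp, haptoglobin, a hemoglobin-binding protein made by liver and fat, and Tmem45b. Hp was 21.1, 33.7 and 145 FPKM in rich and 3.20, 6.50 and 17.0 in poor libraries, with no overlap (log2 2.43, SE 0.36, FDR 0.000632). Tmem45b was 2.46, 4.38 and 11.9 FPKM against 0.207, 0.884 and 1.68, also without overlap (log2 2.42, SE 0.35, FDR 0.00051). Ptger3, a receptor for prostaglandin E2, rose by 2.32 (FDR 0.000635) and Prkar2b, a regulatory subunit of protein kinase A, by 2.17 (FDR 0.000311). Acp5, tartrate-resistant acid phosphatase, rose by 2.05 (FDR 0.000311) and Mrap, an accessory protein of melanocortin receptors, by 1.78. Smoc1, a secreted calcium-binding matrix protein, rose by 1.81. Of the 21 genes whose rich and poor libraries did not overlap, 9 are on the adipocyte lists and 12 are not, and the 12 were Hp, Tmem45b, Prkar2b, Acp5, Phgdh, Cd1d1, Aoc3, Nnmt, Gnai1, Mmd, Dram1 and Col18a1.

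Further genes on no list were picked after their values were seen, and stand for no group. Phgdh, the first enzyme of serine synthesis, rose by 1.68 on the log2 scale (FDR 0.00025) and Psat1, the following enzyme, by 1.03. Slc1a5, a glutamine transporter, rose by 1.05 and Cdo1, which oxidizes cysteine, by 1.64. Nnmt, which methylates nicotinamide, rose by 1.43, Aoc3, a surface amine oxidase, by 1.44 (FDR 0.00026) and Gnai1, an inhibitory G protein subunit, by 1.42 (FDR 8.1e-05). The complement genes Cfb, C4b and C2 rose by 1.12, 0.82 and 0.62, although Cfb and C2 each share exon bases with the gene model Gm20547. The 8 called rows of the Ugt1a cluster share exons with each other and count as 1 locus at most.

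Markers of other cells were read from lists in the same way, and 3 of these lists held genes that rose. Of 14 macrophage and antigen-presentation genes, 5 rose, 0 fell and 14 were above 0, with a median of 0.40. H2-Aa, a chain of the MHC class II molecule that presents antigen to helper T cells, was 14.3, 24.5 and 56.9 FPKM in rich and 11.6, 14.1 and 21.1 in poor libraries, and the classes overlapped (log2 0.82, SE 0.18, FDR 0.0219). Cd74, its chaperone, was 28.9, 47.9 and 95.4 FPKM against 23.6, 28.2 and 40.3 (log2 0.77, SE 0.16, FDR 0.0139). H2-Ab1 rose by 0.79 (FDR 0.045), H2-Eb1 by 0.79 (FDR 0.0334) and Csf1r, the receptor that keeps macrophages alive, by 0.41 (FDR 0.017). Cd68, a lysosomal protein of macrophages, differed by 0.55 and Adgre1, the F4/80 antigen, by 0.52 without passing. C1qa, C1qb and C1qc, the chains of complement C1q, differed by 0.36, 0.36 and 0.39, and Cd163 and Mrc1, receptors of resident macrophages, by 0.11 and 0.21.

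The MHC class II genes did not follow Adipoq evenly. The log2 change of H2-Aa was 1.52 among LD libraries alone and 0.35 among ADV libraries alone, that of H2-Ab1 1.61 and 0.24, and that of Cd74 1.399 and 0.35. The difference between schedules had an unadjusted p under 0.05 for each of them, and the FDR was 0.4655 for H2-Aa and 0.43 for H2-Ab1 in edgeR's interaction test. H2-Aa ranged from 33.2 to 56.9 FPKM in the 3 rich LD libraries and from 14.3 to 29.6 in the 7 rich ADV libraries. Without LD mouse 30, the highest of them, 2 of the 14 genes on the list were called. The summed level of the list was 151 to 429 FPKM in rich and 140 to 249 in poor libraries, with an adjusted value of 0.0582 by permutation. The highest sum of all 30 libraries, 583 FPKM, was that of LD mouse 33, a middle library. There H2-Aa was 84.8 and Cd74 151 FPKM, at an Adipoq level of 12.3 FPKM. The middle libraries lay 86.8% of the way from poor to rich for the 5 called genes, and the slope within them was above 0 for 0 of the 5. Over the alternative settings 0 to 7 of the list were called, with 0 in 7 of 25 settings. Among these 7 were the fits with the clock score as a term, with the class in 3 levels, with 15 against 15 libraries, of ADV libraries alone and, chosen after seeing the data, with Ptprc, a gene of all leukocytes, as a term. With libraries left out in turn, 2 to 8 were called.

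Igkc, the constant region of the immunoglobulin kappa chain made by B cells and plasma cells, had the largest log2 change of any called gene. It was 1.45, 2.57 and 61.5 FPKM in rich and 0, 0.765 and 2.32 in poor libraries, and the classes overlapped (log2 3.66, SE 0.66, FDR 0.00409). The 61.5 FPKM was LD mouse 30 and the next among rich libraries, 26.998, LD mouse 23. LD mouse 33, a middle library, lay between them at 39.0 FPKM. Within the middle libraries the slope of Igkc on Adipoq was -5.19. The log2 change was 5.199 in LD and 1.94 in ADV libraries, and 2.92 without LD mouse 30 (FDR 0.0113). Igkc also differed between schedules, at -2.07 in ADV against LD, and the gene model Gm68839 on the other strand covers 97.9% of it. Only 3 of 12 B and plasma cell genes were tested. Besides Igkc these were Ighm, with means of 135 FPKM in rich and 125 in poor libraries, and Xbp1. Neither passed, with log2 differences of 0.15 for Ighm (FDR 0.782) and 0.12 for Xbp1 (FDR 0.349). Of the mast cell list, 4 of 7 were tested and Mcpt4, a chymase, rose by 0.47 (FDR 0.0207), a call lost without ADV mouse 29.

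**Figure D3:**
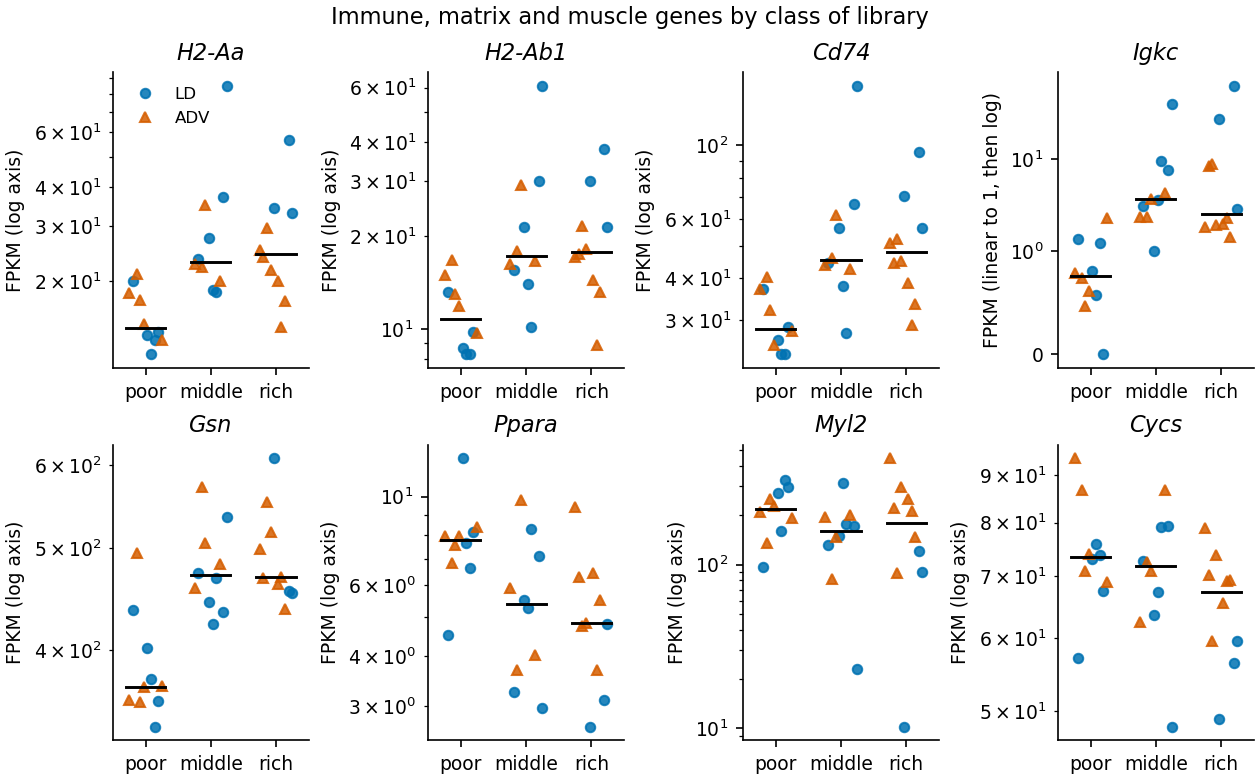
FPKM on a log scale of H2-Aa, H2-Ab1, Cd74, Igkc, Gsn, Ppara, Myl2 and Cycs in the 3 classes of 10 libraries, with symbols as for the adipocyte genes and a black line at the class median. The axis of Igkc is linear at its lowest values. Igkc reaches 61.5 FPKM in a single rich library, and the class II genes overlap between rich and poor libraries.

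Fibro-adipogenic progenitor and matrix genes were shifted by less. Of 14 progenitor genes 0 were called, and 12 were above 0 with a median of 0.18. Gsn, gelsolin, an actin-severing protein abundant in these cells, was 438, 469 and 609 FPKM in rich and 338, 369 and 495 in poor libraries, with a log2 difference of 0.34 (SE 0.07, FDR 0.013) that was under the fold limit. The summed progenitor list was 922 ± 76.8 FPKM in rich and 780 ± 67.8 in poor libraries (SD, n = 10 each, adjusted p = 0.021, two-sided permutation test over 30 measures), the only 1 of the 30 measures under 0.05 after adjustment. Gsn made up most of this difference, with means of 493 and 386 FPKM, followed by Dcn, the proteoglycan decorin, with 249 and 222. Of 13 collagen chains 0 were called, 12 were above 0 and 8 had an unadjusted p under 0.05, with Col1a1, the main chain of type I collagen, at 0.42 (FDR 0.0516). Matrix genes outside the lists did pass: Sparc, a collagen-binding glycoprotein, rose by 0.68 (FDR 0.0191), Dpt, dermatopontin, by 0.65 (FDR 0.000414) and Col18a1, the chain of type XVIII collagen, by 0.61.

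The 15 genes that fell did so by at most 0.90 on the log2 scale, the value of the gene model Gm56626. Its call was lost in 15 of 20 fits with 1 library left out. Slc39a14, a zinc and iron importer, was 2.64, 2.90 and 3.89 FPKM in rich and 3.12, 3.77 and 6.04 in poor libraries, which overlapped (log2 -0.50, SE 0.09, FDR 0.00582). Ung, uracil DNA glycosylase, was at -0.63 (FDR 0.0126) and Mcc at -0.54 (FDR 0.0155). These 3 stayed called with any single library left out. Over the other settings Mcc kept its call in 10 of 24, Slc39a14 in 17 of 25 and Ung in 19 of 25. Ppara, the nuclear receptor that drives fatty acid oxidation, was 2.66, 4.83 and 9.39 FPKM against 4.51, 7.81 and 12.5 (log2 -0.71, SE 0.18, FDR 0.0487), but was lost in 17 of 20 such fits and overlaps Cdpf1 on the other strand over 50.8% of its exon bases. Esrrb, an estrogen-related receptor, at -0.71 (FDR 0.0377) was lost in 12 and Slc25a13, the mitochondrial aspartate-glutamate carrier, at -0.85 (FDR 0.039) in 14. Slc40a1, the iron exporter ferroportin, was at -0.52, Plin3, a perilipin of many tissues, at -0.45 (FDR 0.0234) and Pfkfb2, which sets the level of the main glycolytic activator, at -0.54. Gm29427 (-0.58) shares 66.1% of its exon bases with Pfkfb2, so they are not separate evidence. Slc40a1, Pfkfb2 and Gm29427 each lost their call in 8 of the 20 fits with 1 library left out.

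Of 19 respiratory chain genes 0 were called, but 19 lay below 0, with a median of -0.17, and 15 had an unadjusted p under 0.05. Without LD mouse 23 that number was 7, without the schedule term 4 and with the clock score as a term 4. Among LD libraries alone the median was -0.35 and 19 had an unadjusted p under 0.05, and among ADV libraries alone it was -0.06 and 1 did. The difference between schedules was not tested for the list. Cycs, cytochrome c, was 49.0, 67.3 and 78.9 FPKM in rich and 57.1, 73.4 and 94.0 in poor libraries, with a log2 difference of -0.26 (SE 0.06, FDR 0.0386) under the fold limit. The summed level of the list, 8515 ± 1240 FPKM against 9032 ± 979 (SD, n = 10 each), did not differ detectably (p = 0.315, permutation test).

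Slow fiber genes showed opposite values in the schedules. All 13 tested were below 0 in the whole comparison, with a median of -0.22, and 0 were called. Among LD libraries 13 were below 0 with a median of -1.75, and among ADV libraries 2 were, with a median of 0.33. The difference between schedules had an unadjusted p under 0.05 for 12 of the 13, and 0 genes passed an FDR of 0.05 in edgeR's interaction test. The summed slow fiber level was 76.9 FPKM in LD mouse 23, far below the 395 and 539 of the other rich LD libraries, and 2568 in ADV mouse 24. Without LD mouse 23, 7 of the 13 were below 0 and the median was -0.07. Of 14 fast fiber genes 0 were called, with a median of 0.07.

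**Figure D4:**
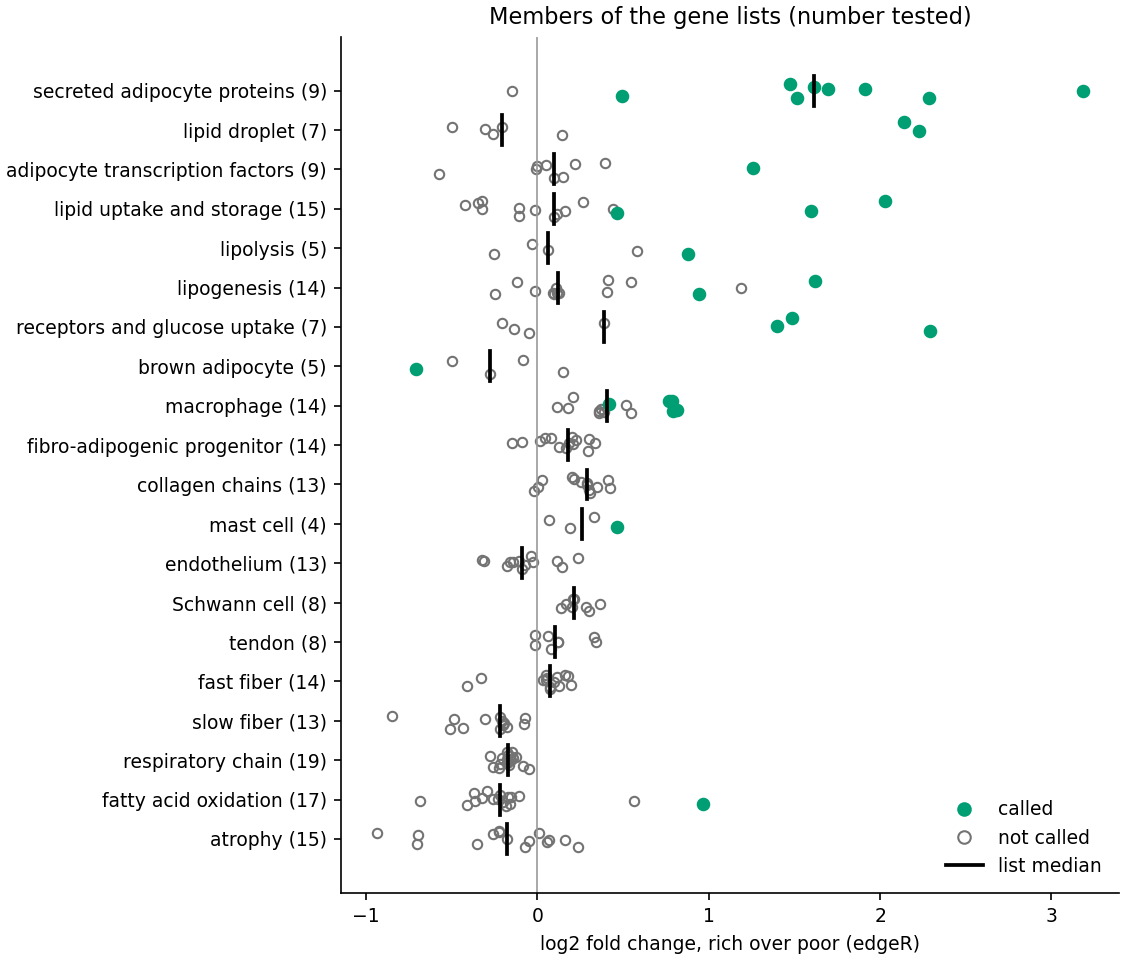
Log2 fold change, Adipoq-rich against Adipoq-poor, of the tested members of selected gene lists, with called genes filled, other genes as open circles and list medians as black lines. The adipokine list, plotted as secreted adipocyte proteins although it also holds Nnat and Sncg, has the highest median at 1.61. The respiratory chain genes all lie below 0, and the vertical line is at 0.

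No gene was called on the lists for endothelium (13 tested), smooth muscle (10), Schwann cells (8), tendon (8), erythroid cells (5), glycolysis (13), muscle atrophy (15), denervation (11), sterol synthesis (11), immediate early response (21), heat shock (17) or the clock (12 evening and 6 morning genes). All 8 Schwann cell genes were above 0, with a median of 0.21. Among atrophy genes, Trim63, a muscle ubiquitin ligase, was at -0.70 (FDR 0.282) and Cdkn1a, the cell cycle inhibitor p21, at -0.94 (FDR 0.144), neither passing. Of 8 skin and hair genes 2 were tested and 0 called, Sbsn, suprabasin, at 0.31 (FDR 0.351) and Krt10, a keratin of upper epidermis, at 0.00. Krtdap, a keratinocyte protein under the filter, had means of 1.08 FPKM in rich and 0.371 in poor libraries, and the keratins Krt5, Krt14 and Krt15 were listed at 0. Of 12 T cell and lymph node genes 1 was tested, Ccl21a, a lymph node chemokine, at 0.49 (FDR 0.295). Of 9 brown fat genes 5 were tested, 0 rose and Ppara was the 1 that fell. Ucp1, the uncoupling protein that defines brown and beige fat, was under the filter at mean levels of 0.0025 FPKM in rich and 0.0022 in poor libraries, and Elovl3 was at 0 in both.

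The called genes were also read within each schedule, in the same libraries on which the calls were made. All 132 genes that rose and all 15 that fell had the same sign within LD and within ADV libraries. Because the genes were chosen for a difference over these libraries, the same sign in both schedules is likely in advance. The share of all genes with the same sign was not counted. The median log2 change of the adipocyte genes that rose was 1.49 in LD and 1.69 in ADV libraries. For the 5 called genes of the macrophage and antigen-presentation list (H2-Aa, H2-Ab1, H2-Eb1, Cd74 and Csf1r) it was 1.51 and 0.31. In the interaction test 0 genes had an FDR under 0.05 with edgeR and 0 with DESeq2, while 1009 (8.39%) had an unadjusted p under 0.05. Set side by side, the comparison of all ADV with all LD libraries called 252 genes (2.09%), and 3 of them were also among the 147: Slc9a9 at -0.45, Igkc at -2.07 and Esrrb at 0.51 in ADV against LD. Of the 66 adipocyte genes 2 were called between schedules, Cidea at 0.77 (FDR 0.0481) and Pnpla3, a lipid remodeling enzyme, at 0.83 (FDR 0.0492).

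**Figure D5:**
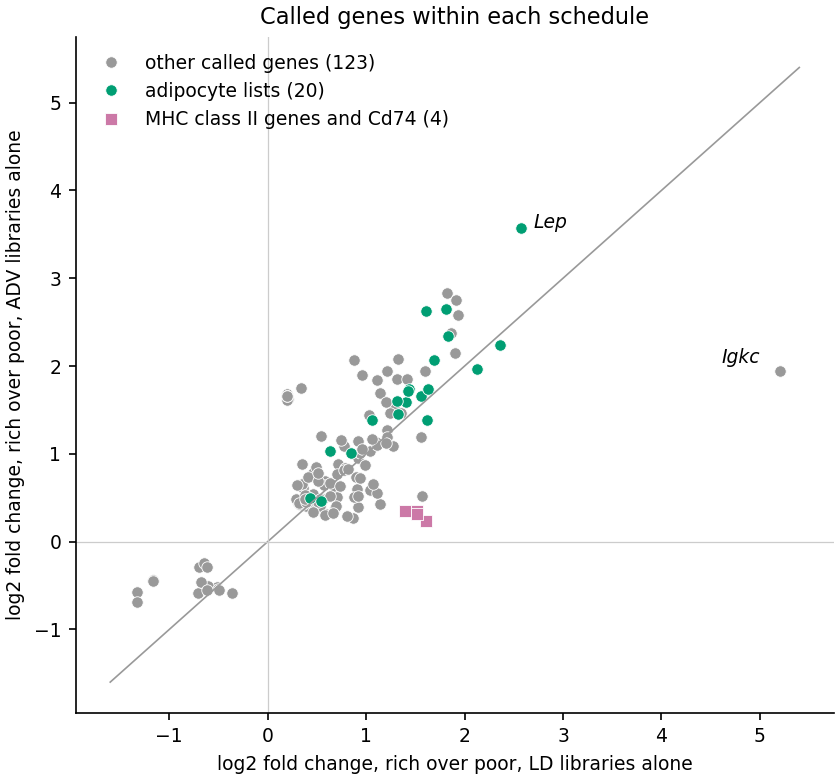
Log2 fold change, Adipoq-rich against Adipoq-poor, among LD libraries alone (x) and among ADV libraries alone (y) for the 147 called genes, with adipocyte genes, MHC class II genes with Cd74, and other genes in different colors. Every gene has the same sign on both axes, which is likely in advance for genes called on these same libraries. The diagonal marks equal change, and the class II genes lie to the LD side of it.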

How the data were processed

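Poly(A) RNA from 30 gastrocnemius muscles was sequenced as stranded paired-end libraries. The authors trimmed reads, aligned them with STAR 2.7.10a to GRCm39, dropped poorly mapped reads and counted those in exons of 57186 transcripts with HOMER 4.11 (versions from the submitters' processing notes). Whether counting used strand is not given in the sources used here. The deposited counts add 0.5 reads for each end of a read pair, so 14.8% of the values are not whole, and these deposited values were handled as estimated counts and rounded. The deposited FPKM values divide the count by transcript length and library total, as recomputed here within 0.0005, and served for the ranking and for printed levels.

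One row per symbol was kept. Genes with a mean over 20 reads and over 0.5 FPKM in the 30 libraries were tested (12030 with Adipoq), with edgeR 4.0.16 in R 4.3.3 (TMM, quasi-likelihood F test, schedule and class as terms) on the 20 rich and poor libraries. A call needed a Benjamini-Hochberg FDR under 0.05 and a fold over 1.3. Interaction, within-schedule and middle-library fits used the same steps. Summed lists and technical measures were compared with two-sided permutation tests of 100000 resamples (scipy 1.17.1), adjusted over 30 measures. Unlike the edgeR fits, these tests had no schedule term. DESeq2 1.42.0 and limma 3.58.1 were alternatives. Precision rests on 10 mice a class, and depth was 18875468.5 to 28512674 exon reads.

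Named genes were the 12 largest rises and 12 largest falls among called genes, the tested adipocyte genes, and of every other list its 2 most abundant members and the one with the smallest p. Other genes were picked after their values were seen. The comparison, its members and the gene lists were chosen with earlier results of these data known. On simulated counts with 200 of 12030 genes changed, the edgeR fit made 200 calls, 196 of them right. It made 0 when none were changed. The changed genes had set folds of 0.5, 1.5, 2 or 4. Whether these rates hold for the real libraries, whose classes were ranked on the level of a gene, was not tested.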

Additional observations from a re-analysis of the deposited data

Results flagged for a closer look

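In 84 checks of a gene within a class of 10 libraries, the gap between the highest or lowest library and its neighbor was unusually large for 19, where chance flags about 1 in 20 independent groups. These genes follow each other across libraries, so that rate does not apply to their number. ADV mouse 24, the library highest in Adipoq, stood apart above the other rich libraries for 11 genes. They were Lep (39.6 FPKM, next 17.3), Hp (145, next 77.0), Tmem45b (11.9, next 6.87), Ptger3 (2.96, next 1.52), Slc7a10 (5.14, next 2.82), Cidec (61.1, next 31.3), Prkar2b (6.99, next 3.52), Plin1 (19.3, next 11.8), Sncg (41.4, next 27.3), Npr3 (6.73, next 3.798) and Trarg1 (5.53, next 2.94). Without this library and ADV mouse 33, an alternative chosen after seeing the data, 100 genes were called in place of 147.

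In the rich libraries Igkc also stood apart in LD mouse 30 (61.5 FPKM, next 26.998) and Retn in ADV mouse 27 (14.7 FPKM, next 8.65). In the poor libraries LD mouse 29 was high for Ppara (12.5 FPKM, next 8.38) and Pck1 (2.67, next 1.62). ADV mouse 28 was high among them for Rarres2 (21.6, next 14.5) and Slc25a1 (3.42, next 2.37), ADV mouse 30 for Mcc (1.38, next 1.08) and ADV mouse 31 for Slc40a1 (14.8, next 9.56).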

How the results depend on the processing

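The count of 147 genes moved by more than 1.5 times under 12 settings besides the libraries left out one at a time. It was 228 with DESeq2, 86 with limma on log2(FPKM + 1), 74 with a filter of over 100 reads and 1 FPKM, 87 with 8 against 8 and 74 with 15 against 15 libraries. It was 229 when libraries were ranked by Plin1, 26 among LD and 34 among ADV libraries alone. A slope on Adipoq over 30 libraries gave 306 with no fold limit, beside 207 in the main fit with no fold limit. With label number over 28 as a term the count was 74 and with Ptprc as a term 55, both chosen after seeing the data. Leaving out each library in turn gave 92 to 199, with 92 without LD mouse 23 and 97 without ADV mouse 29. Adipocyte genes that rose ranged from 18 to 20 in these fits and from 2 to 24 over the other settings, with 5 among LD libraries alone, 10 among ADV libraries alone and 2 with the replicate block. The interaction count was 0 with DESeq2 and 1009 without adjustment, and adipocyte genes called between schedules were 2 with edgeR and 5 with DESeq2.

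With the replicate number as a block, 5 genes were called, against 161 in the same 28 libraries without the block. Deviations of 14 same-numbered pairs correlated at -0.26 to 0.43, with 6 above 0.1. These correlations cannot show what the number stands for, and whether same-numbered mice shared a batch was not tested. No called gene named here reversed its direction, but the slow fiber median, -0.22, was 0.33 among ADV libraries alone, 0.03 for the slope over 30 libraries and 0.06 with the block. Other scalings moved the median of all genes between -0.008 and 0.01. Depth limits the genes under the filter, Adrb3 and Ucp1 among them.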
